A study of Mus musculus with 5 samples.

Results

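The butyrophilin-like (Btnl) genes of the mouse gut epithelium and the genes of the lymphocytes that live between its cells were followed in RNA of the whole small intestine. The set held 10 genes named by symbol: the epithelial members Btnl1, Btnl2, Btnl4 and Btnl6, the lymphocyte members Gzma, Gzmb, Cd8a, Itgae and Tcrg-C1, and the cytokine gene Il15. All 10 had a row among the 19198 genes of the deposited table. The study compared 3 mAChR4fl/fl mice without Cre, called Cre-negative here, with 2 Math1Cre*PR mAChR4fl/fl mice, called Cre-positive, and each library came from a different mouse. Math1Cre*PR joins a Cre recombinase to the progesterone receptor, is driven by Math1, a gene of secretory cell precursors, and is activated by the drug RU486. Both groups carried the floxed muscarinic receptor gene Chrm4, and both received RU486 by gavage at 10 mg/kg each day for 4 days. Because no Cre-positive mouse had an unfloxed receptor gene, Cre activation and Chrm4 targeting cannot be told apart. The labels used here do not give the age or sex of the mice or the section of intestine.

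Intraepithelial lymphocytes sit between the absorptive cells of the gut lining, and many of them carry a gamma delta T cell receptor. Btnl1 and Btnl6 proteins form a complex on mouse enterocytes that maintains the main gamma delta subset of the small intestine, and Btnl2 and Btnl4 are neighbours of the same family. Cd8a encodes the CD8 alpha chain, Itgae the integrin chain CD103 that binds E-cadherin on epithelial cells, and Tcrg-C1 a constant segment of the gamma receptor chain. Gzma and Gzmb encode granzymes, serine proteases of cytotoxic granules, and Il15 encodes a cytokine that epithelial and myeloid cells present to these lymphocytes.

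The 4 Btnl genes lay together on chromosome 17 (GRCm38, GENCODE M21), with Btnl2 at chr17:34354822-34369495 and Btnl1 at chr17:34377132-34386028 on the plus strand. Btnl4 at chr17:34466562-34477318 and Btnl6 at chr17:34507804-34517352 followed on the minus strand, beside the pseudogene Btnl7-ps at chr17:34532877-34547651. The lymphocyte genes were spread over the genome, with Gzma at chr13:113093825-113100981, Gzmb at chr14:56258838-56262260, Cd8a at chr6:71373427-71379173, Itgae at chr11:73090583-73147446 and Tcrg-C1 at chr13:19214103-19217024. Il15 lay at chr8:82331632-82403222. In the annotation, no exon of a member overlapped an exon of another gene.

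Sequences are shown first for the genes whose levels moved apart between libraries, an epithelial pair and a granzyme pair. Each is the 250 bases before the RefSeq start site (GRCm38.p6), written from 5′ to 3′ on the gene's strand, for Btnl1 (chr17:34376882-34377131, plus strand), Btnl2 (chr17:34354572-34354821, plus strand), Gzma (chr13:113100982-113101231, minus strand) and Gzmb (chr14:56262335-56262584, minus strand). Capitals mark matches to letters recognised by HNF4, a nuclear receptor of enterocytes, in the Btnl genes, and by RUNX factors, regulators of cytotoxic lymphocytes, in the granzyme genes.
Btnl1: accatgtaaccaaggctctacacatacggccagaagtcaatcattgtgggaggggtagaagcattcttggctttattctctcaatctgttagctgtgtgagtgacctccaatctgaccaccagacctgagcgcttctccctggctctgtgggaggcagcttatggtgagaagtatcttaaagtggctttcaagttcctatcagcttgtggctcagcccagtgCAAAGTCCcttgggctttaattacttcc
Btnl2: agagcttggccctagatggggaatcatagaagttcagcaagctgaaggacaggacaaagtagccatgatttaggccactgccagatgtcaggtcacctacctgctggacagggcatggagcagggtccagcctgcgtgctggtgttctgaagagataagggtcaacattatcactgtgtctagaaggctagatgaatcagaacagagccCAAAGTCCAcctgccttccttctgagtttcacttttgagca
Gzma: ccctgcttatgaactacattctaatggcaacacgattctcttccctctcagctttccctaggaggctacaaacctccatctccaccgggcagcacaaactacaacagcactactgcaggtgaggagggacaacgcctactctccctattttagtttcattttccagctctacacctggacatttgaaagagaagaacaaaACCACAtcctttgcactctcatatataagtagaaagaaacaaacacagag
Gzmb: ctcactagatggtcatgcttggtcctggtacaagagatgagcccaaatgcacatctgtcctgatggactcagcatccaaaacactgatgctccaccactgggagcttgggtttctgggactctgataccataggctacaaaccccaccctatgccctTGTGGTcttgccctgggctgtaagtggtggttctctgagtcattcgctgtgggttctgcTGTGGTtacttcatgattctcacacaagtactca
The searched HNF4 letters, CAAAGTCCA on either strand, were found in Btnl2 alone among the 7 members with a RefSeq promoter entry, with the first base 41 bases before the start, and in 0.384% of 32851 promoters of the same length. The first 8 of those letters, a form chosen after the sequences had been seen, occurred in Btnl1, Btnl2 and Cd8a and in 1.20% of all promoters. The Btnl1 match began 28 bases before the start. The RUNX letters TGTGGT, on either strand, were found in Gzma and Gzmb and in 14.0% of all promoters. The Gzma match is the reverse complement and began 50 bases before the start. Gzmb held 2 matches, 93 and 34 bases before a RefSeq start that lies 74 bases from the GENCODE start. A match describes letters and is not evidence of binding.

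A second sequence, from the GENCODE transcripts, shows a stretch that Btnl4 and Btnl6 share. Their transcripts shared 82.6% of aligned bases, and the run printed here, 69 coding bases of 1 exon of Btnl4 (chr17:34469371-34469439, GRCm38, minus strand), is identical in Btnl4, Btnl6 and Btnl7-ps.
Btnl4 bases 1364 to 1432: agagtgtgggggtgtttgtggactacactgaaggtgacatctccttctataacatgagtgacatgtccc
Btnl4 shared 86.1% of aligned bases with the pseudogene, against 83.7% for Btnl6, and the longest identical runs were 116 and 100 bases. Btnl1 and Btnl2 shared no run longer than 19 bases with any other member of the cluster. Deposited values of Btnl4 were not whole in 5 of 5 libraries, those of Btnl6 in 1 of 5 and those of Btnl7-ps in 0 of 5. How shared reads were divided is not known, so the levels of Btnl4 and Btnl6 as separate genes are uncertain. Among the receptor genes, Tcrg-C1 shared a run of 104 bases and 94.0% of aligned bases with Tcrg-C2.

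Library totals ran from 4681119 to 6618204 estimated counts, and the labelled tissue carried its enterocyte markers, with Vil1, which encodes the microvillus protein villin, at 603 to 1066 CPM, the count scaled to a common library size. CPM values were scaled by edgeR's TMM method. Chrm4 received 4, 20 and 4 counts among the Cre-negative mice and 13 and 5 among the Cre-positive mice, and these ranges overlapped. The library of Cre-positive mouse 1 stood apart from the other 4. It was highest for 14 of 14 B cell and follicle markers, which summed to 424 CPM against 7.49 to 11.3 CPM elsewhere, and for 8 of 8 pan-leukocyte markers, which summed to 382 CPM against 33.5 to 69.5 CPM. Cd79a, Blk and Fcmr, named after their values were seen, had counts there and 0 counts in each other library. The same library was the highest for 26.0% of all rows in the table. Sums over genes of the proximal and distal small intestine gave no single order. The proximal list summed to 287 CPM in this library, mostly from Slc40a1, against 203 to 521 CPM elsewhere. The distal list summed to 2340 CPM against 902 to 2656 CPM, with Cubn alone at 554 to 2020 CPM over the 5 libraries. Single genes went both ways, with the proximal gene Gata4 at 0.387 CPM against 19.8 to 47.4 CPM and the proximal gene Slc40a1 at 234 CPM against 8.63 to 96.7 CPM. The proximal genes Gstm3, Rbp2 and Cybrd1 were also lowest in this library, at 1.16, 12.0 and 7.35 CPM. So were Cyp2b10 and Slc46a1, named after their values were seen, at 0.774 and 2.32 CPM. Of the distal genes, Amn, named in the same way, was lowest there, at 18.6 CPM. This library was the lowest for 29.0% of all genes tested. Cre-positive mouse 1 was the highest library for 2 of 10 proximal and 4 of 10 distal genes, against 26.0% of all rows. Of the distal genes, Slc10a2 stood at 810 CPM against 6.52 to 376 CPM, and Fabp6 at 47.6 CPM against 0.652 to 61.3 CPM. Smooth muscle markers had negative fold changes for 12 of 12 genes (median log2 fold change -0.88), with sums of 1656 to 4263 CPM in the Cre-negative libraries and 1388 and 1657 CPM in the Cre-positive libraries. The library of Cre-positive mouse 2 lay within the Cre-negative range for the sums of both leukocyte lists. The part of these markers in the results that follow was not tested, and results are therefore also given without each Cre-positive mouse. In bulk tissue, fewer cells of a type and less RNA per cell cannot be told apart.

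**Figure D1:**
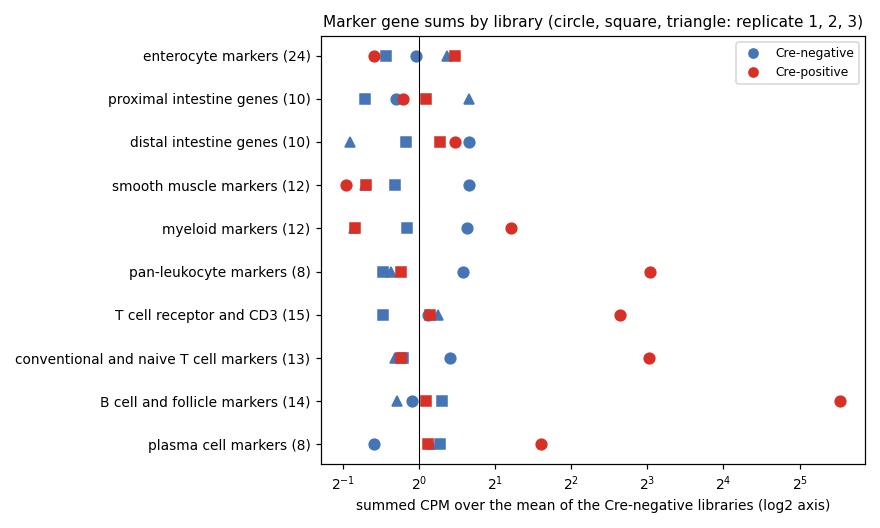
Summed TMM-scaled CPM of each marker list (genes in the table in brackets) in each of the 5 libraries, divided by the mean of the Cre-negative libraries, on a log2 axis, with colour for the group and shape for the mouse. Cre-positive mouse 1 lies far above the other 4 libraries for B cell and follicle, pan-leukocyte and conventional T cell markers.

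The Btnl genes did not differ between the groups beyond the spread between mice, whereas counts of the lymphocyte members were low and leaned to the Cre-positive side. Of the 9 members that could be tested, 0 were called by edgeR's quasi-likelihood test at an adjusted p of 0.05. The same held for all 14352 genes tested, of which 0% were called higher and 0% lower, while DESeq2 called 19 of them (0.132%). At an unadjusted p under 0.05, 485 genes (3.38%) passed, among them Gzmb, Cd8a and Tcrg-C1.

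Btnl1, a subunit of the complex with Btnl6, stood at 140, 93.0 and 131 CPM in the Cre-negative libraries and at 71.4 and 180 CPM in the Cre-positive libraries. The lowest and the highest library were thus both Cre-positive, and the groups overlapped. Their means were 122 ± 25.1 CPM (SD, n = 3) and 126 ± 77.0 CPM (SD, n = 2), and the log2 fold change, taken throughout as the Cre-positive over the Cre-negative level, was 0.05 ± 0.40 (SE; 95% interval -0.89 to 1.0; edgeR adjusted p = 0.991). This interval still allows a change of nearly 1 log2 unit either way. The call rested on counts of 369 to 1160 per library, and the Cre-positive pair differed 2.53-fold from each other.

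Btnl6, the partner of Btnl1, was the steadiest member among the Cre-negative mice, at 81.5, 85.6 and 82.4 CPM. The Cre-positive mice lay on either side of these values, at 62.3 and 103 CPM. Its log2 fold change was -0.01 ± 0.25 (SE; 95% interval -0.61 to 0.59; edgeR adjusted p = 0.997).

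Btnl2, a family member reported to dampen T cell responses, stood at 101, 68.6 and 108 CPM in the Cre-negative libraries and at 48.0 and 111 CPM in the Cre-positive libraries. As for Btnl1, both extremes were Cre-positive. Its log2 fold change was -0.22 ± 0.38 (SE; 95% interval -1.13 to 0.69; edgeR adjusted p = 0.977).

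Btnl4, the least abundant of the Btnl members, stood at 26.1, 25.2 and 28.7 CPM in the Cre-negative libraries and at 15.5 and 26.1 CPM in the Cre-positive libraries. Only the first Cre-positive mouse lay below the Cre-negative range. On the log2 scale the change was -0.36 ± 0.29 (SE; 95% interval -1.04 to 0.33; edgeR adjusted p = 0.977). When Btnl4, Btnl6 and Btnl7-ps were summed, since they share sequence, the counts were 553, 736 and 863 in the Cre-negative libraries and 510 and 1097 in the Cre-positive libraries, with a log2 fold change of -0.02 (edgeR adjusted p = 0.993). Btnl7-ps alone stood at 24.9, 25.6 and 29.5 CPM and at 20.9 and 41.7 CPM, with the second Cre-positive mouse highest and the first lowest.

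No Btnl member had groups that did not overlap in either direction, against 7.89% of all genes tested with Cre-positive higher and 10.2% with Cre-positive lower. Across the cluster, Cre-positive mouse 1 was the lowest of the 5 libraries for 4 of 4 Btnl members, as it was for 29.0% of all genes tested. Cre-positive mouse 2 lay above every Cre-negative library for 3 of 4 Btnl members, as it did for 19.0% of all rows in the table. The exception was Btnl4, for which Cre-positive mouse 2 lay inside the Cre-negative range. Among the Cre-negative mice the members did not share 1 order: mouse 2 was lowest for Btnl1, Btnl2 and Btnl4 and highest for Btnl6. Without Cre-positive mouse 1, the log2 fold changes of the 4 Btnl genes were 0.61 (Btnl1), 0.29 (Btnl2), 0.00 (Btnl4) and 0.34 (Btnl6), and without Cre-positive mouse 2 they were -0.72, -0.91, -0.75 and -0.38. None was called by edgeR in either fit. Set against enterocyte transcripts, the summed Btnl counts were 9.68, 9.94 and 7.36 per 1000 counts of 24 enterocyte markers in the Cre-negative libraries. They were 8.04 and 8.17 in the Cre-positive libraries, inside the Cre-negative range. Apob alone, at 8822 to 19849 CPM per library, made up much of the marker sum, so the ratio depends on the markers summed. Both Cre-positive libraries lay above all Cre-negative ones for 3 of the 24 markers, among them Epcam, and below them for 0. Enterocyte markers themselves summed to 24528 CPM in Cre-positive mouse 1 and 51388 CPM in Cre-positive mouse 2, the lowest and the highest of the 5 libraries.

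**Figure D2:**
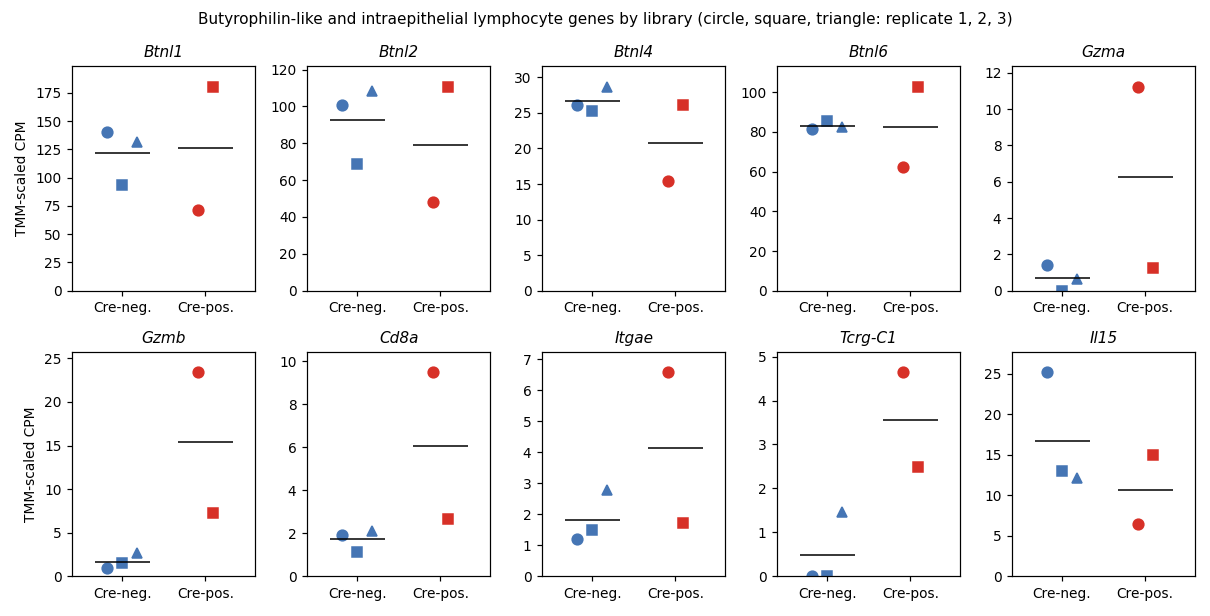
TMM-scaled CPM of the 10 genes in each library, with 1 panel per gene and a linear axis from 0. Circles, squares and triangles are replicates 1, 2 and 3, blue for Cre-negative and red for Cre-positive, and bars are group means. For Btnl1, Btnl2 and Btnl6 the Cre-positive points are the highest and the lowest, whereas for all 5 lymphocyte genes Cre-positive mouse 1 is highest.

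The makeup of the Btnl signal varied little. Btnl1 held 34.1% to 42.9% of the summed Btnl counts in the 5 libraries, Btnl2 24.3% to 30.9%, Btnl6 23.4% to 31.6% and Btnl4 6.22% to 9.25%. The order of levels per length depended on the length used. Per kb of all annotated exons, Cre-negative levels were 47.5 ± 1.24 CPM (SD, n = 3) for Btnl6, 37.7 ± 7.77 for Btnl1, 35.8 ± 8.17 for Btnl2 and 11.2 ± 0.756 for Btnl4. Btnl1 and Btnl2 were not separated beyond their spread. Per kb of the first listed transcript of each gene, Btnl1 came above Btnl6, at 57.5 against 51.3 CPM per kb. Btnl4 was the lowest of the Btnl members on both scales.

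Il15, the cytokine gene, stood at 25.2, 13.0 and 12.1 CPM in the Cre-negative libraries and at 6.39 and 14.9 CPM in the Cre-positive libraries. The first Cre-positive mouse was again the lowest library, and the second lay inside the Cre-negative range. The log2 fold change was -0.63 ± 0.49 (SE; 95% interval -1.78 to 0.51; edgeR adjusted p = 0.977), and leaving out each mouse in turn gave -1.33 (without Cre-positive mouse 2; edgeR adjusted p = 0.445) to -0.11 (without Cre-positive mouse 1). It was -0.20 without Cre-negative mouse 1, the library with the highest Il15 level.

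Gzmb, the granzyme known for starting apoptosis in target cells, had the smallest unadjusted p and the largest ratio of mean CPM among the members, while the fitted log2 fold change of Gzma was slightly larger. Its counts were 4, 8 and 16 in the Cre-negative libraries and 121 and 47 in the Cre-positive libraries, that is 0.958, 1.48 and 2.61 CPM against 23.4 and 7.31 CPM. The groups did not overlap. Counting intervals of the nearest libraries were also apart, at 5.37 to 9.72 CPM in Cre-positive mouse 2 and 1.49 to 4.23 CPM in Cre-negative mouse 3 (exact Poisson, 95%, counting error only). The log2 fold change was 3.13 ± 0.61 (SE; 95% interval 1.68 to 4.57). Its unadjusted p of 0.00135 by edgeR ranked 7 of 14352, and the edgeR adjusted p was 0.977. DESeq2 called Gzmb, with a log2 fold change of 3.19 and an adjusted p of 0.0105, among 12 genes called higher (0.0836%). The edgeR fit without Cre-positive mouse 2 called it as well, at 3.77 with an adjusted p of 0.0496, among 58 genes called higher (0.374%). Without Cre-positive mouse 1 the log2 fold change was 2.09, with mouse 2 as the only Cre-positive library. Across all 16 alternatives, the adjusted p ran from 0.0105 to 0.9999.

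Gzma, the second granzyme, received 6, 0 and 4 counts among the Cre-negative mice and 58 and 8 among the Cre-positive mice, or 1.44, 0 and 0.652 CPM against 11.2 and 1.24 CPM. Only Cre-positive mouse 1 stood above the Cre-negative libraries, and mouse 2 lay below the highest of them. Gzma did not pass the filter on low counts, and in an edgeR fit without the filter its log2 fold change was 3.23 ± 1.15 (SE; adjusted p = 0.982). That value was 0.93 without Cre-positive mouse 1 and 4.10 without Cre-positive mouse 2. The granzymes therefore parted in Cre-positive mouse 2, with Gzmb at 4.34 times and Gzma at 1.79 times its Cre-negative mean, although no test of that difference was made.

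Cd8a, the CD8 alpha chain gene, received 8, 6 and 13 counts among the Cre-negative mice and 49 and 17 among the Cre-positive mice, or 1.92, 1.11 and 2.12 CPM against 9.48 and 2.64 CPM. The groups did not overlap, yet the interval of the second Cre-positive mouse, 1.54 to 4.23 CPM (exact Poisson, 95%), contained the highest Cre-negative value. The log2 fold change was 1.79 ± 0.63 (SE; 95% interval 0.32 to 3.27; edgeR adjusted p = 0.977), with 0.65 without Cre-positive mouse 1 and 2.49 without Cre-positive mouse 2.

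Tcrg-C1, the gamma chain constant segment, received 0, 0 and 9 counts among the Cre-negative mice and 24 and 16 among the Cre-positive mice. In CPM the Cre-negative values were 0, 0 and 1.47, where 0 counts allow up to 0.719 and 0.556 CPM (3 counts of the library), against 4.64 and 2.49 CPM. Both Cre-positive mice lay above the Cre-negative range. The log2 fold change was 2.65 ± 1.12 (SE; edgeR adjusted p = 0.977), and without Cre-negative mouse 3 the Cre-negative group was at 0, so no fold can be given. Summed with its related copies Tcrg-C2 and Tcrg-C4, it had 1, 3 and 14 counts against 60 and 29, with a log2 fold change of 2.85 (edgeR adjusted p = 0.977).

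Itgae, the CD103 gene, received 5, 8 and 17 counts among the Cre-negative mice and 34 and 11 among the Cre-positive mice, or 1.20, 1.48 and 2.77 CPM against 6.58 and 1.71 CPM. Here the second Cre-positive mouse fell inside the Cre-negative range. For Itgae the log2 fold change was 1.13 ± 0.68 (SE; 95% interval -0.47 to 2.73; edgeR adjusted p = 0.977), and it was -0.08 without Cre-positive mouse 1.

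**Figure D3:**
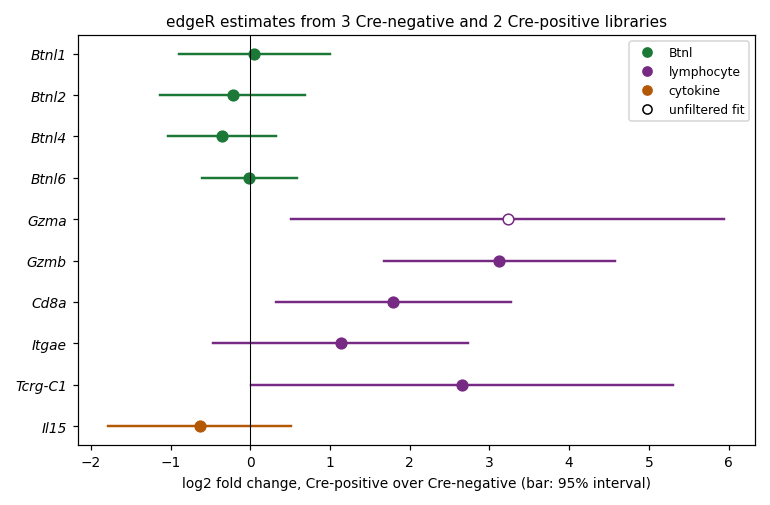
Log2 fold change (Cre-positive against Cre-negative) for each of the 10 genes, with bars for the 95% interval of the edgeR fit. The Gzma value comes from the fit without a filter. The Btnl and Il15 intervals span 0, and the Gzmb interval lies furthest above it, from 1.68 to 4.57.

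Among the 5 lymphocyte members, Cre-positive mouse 1 was the highest library for 5 of 5, as it was for 26.0% of all rows in the table. Cre-positive mouse 2 lay above every Cre-negative library for 3 of 5, namely Gzmb, Cd8a and Tcrg-C1, against 19.0% of all rows. Of the 4 that were tested, those 3 had groups that did not overlap with Cre-positive higher, against 7.89% of all genes tested. Tcrg-C1 passed the filter only through the Cre-positive libraries, and Gzmb and Cd8a through both of these and 1 Cre-negative library, so this count is biased towards higher Cre-positive values. The median log2 fold change was 2.22 over the 4 tested lymphocyte members and -0.12 over the 4 Btnl members, beside -0.04 over all genes tested. The lymphocyte median rests on the same filter and is open to the same bias. In the fit without a filter, the median over all 5 lymphocyte members was 2.70.

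**Figure D4:**
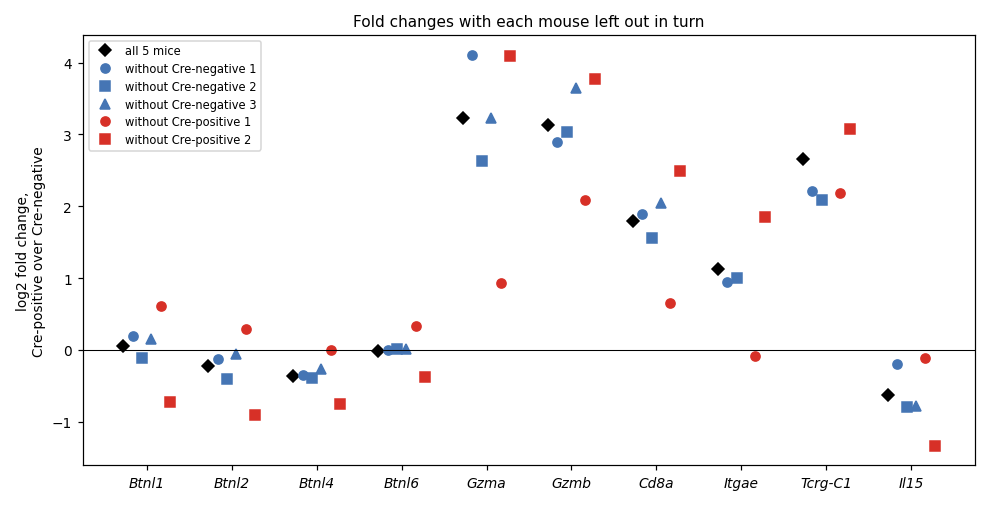
Log2 fold change of each gene with all 5 mice (diamonds) and with each mouse left out in turn, with Gzma from fits without a filter. Tcrg-C1 without Cre-negative mouse 3 is not drawn because the group was then at 0, and Itgae without that mouse did not pass the filter. Leaving out Cre-positive mouse 1 lowers every lymphocyte gene and raises every Btnl gene.

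Set against each other within a library, the 2 kinds of gene were closest in Cre-positive mouse 1. Mean log2 CPM of the Btnl members was 6.22, 5.94 and 6.26 in the Cre-negative libraries and 5.43 and 6.43 in the Cre-positive libraries. Mean log2 CPM of the lymphocyte members was 0.33, -0.11 and 1.09 against 3.31 and 1.56. The difference between them was therefore 5.89, 6.05 and 5.17 log2 units in the Cre-negative mice and 2.12 and 4.87 in the Cre-positive mice. Both Cre-positive mice lay below the Cre-negative range, the first by far and the second by less than the spread among the Cre-negative mice. The group means of the difference were 5.70 ± 0.47 (SD, n = 3) and 3.50 ± 1.94 (SD, n = 2). The gap between those means was -2.21 with all mice, -0.83 without Cre-positive mouse 1 and -3.55 without Cre-positive mouse 2. In raw counts, there were 63.3, 66.8 and 36.5 Btnl counts for each lymphocyte count in the Cre-negative libraries and 3.56 and 27.3 in the Cre-positive libraries. No p is given for these scores, since the genes were chosen with results known.

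**Figure D5:**
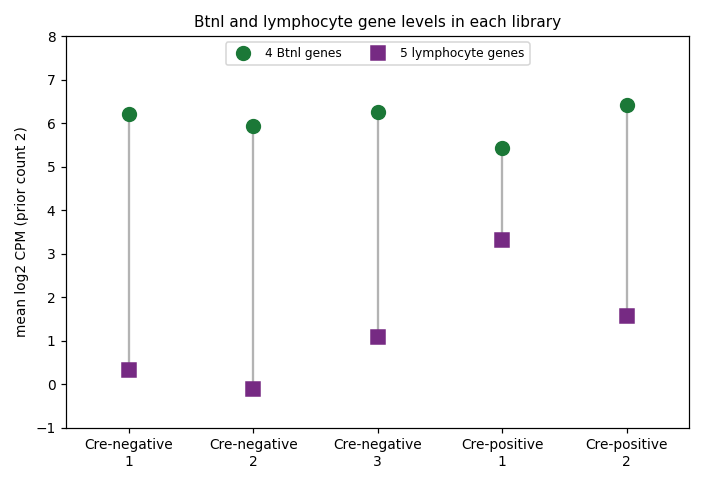
Mean log2 CPM (prior count 2) of the 4 Btnl genes (circles) and of the 5 lymphocyte genes (squares) in each library, joined by a line. The distance is 5.17 to 6.05 in the Cre-negative libraries, 2.12 in Cre-positive mouse 1 and 4.87 in Cre-positive mouse 2.

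Against leukocyte RNA as a whole the Cre-positive mice traded places. The lymphocyte members had 79.3, 122 and 266 counts per 1000 counts of 8 pan-leukocyte markers in the Cre-negative libraries. Cre-positive mouse 1, with 145, lay inside that range, and Cre-positive mouse 2, with 390, lay above it. Ptprc, the CD45 gene of all leukocytes, stood at 19.9, 16.3 and 15.5 CPM in the Cre-negative libraries and at 159 and 14.9 CPM in the Cre-positive libraries. Of the lymphocyte counts, Gzmb held 17.4%, 36.4% and 27.1% in the Cre-negative libraries and 42.3% and 47.5% in the Cre-positive libraries. Itgae held 21.7% to 36.4% in the Cre-negative libraries and 11.9% and 11.1% in the Cre-positive libraries. The shares of Gzma, at 0% to 26.1% against 20.3% and 8.08%, and of Tcrg-C1, at 0% to 15.3% against 8.39% and 16.2%, overlapped between the groups. Shares of 1 sum are tied to each other, the Cre-negative ones rest on 23, 22 and 59 counts in all, and no test of these differences was made.

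Related genes of the same cells were read from lists, none of which held a gene called by edgeR. Of 32 further intraepithelial lymphocyte markers, 25 were in the table and 11 were tested, with 7 positive and 4 negative fold changes and a median log2 fold change of 0.24. Cd7, a surface receptor abundant on these lymphocytes, stood at 1.92, 0.185 and 0.815 CPM against 6.39 and 2.02 CPM, with a log2 fold change of 2.14 ± 0.85 (SE). Gpr18, a receptor of intraepithelial lymphocytes, stood at 0.719, 1.48 and 1.63 CPM against 6.0 and 2.02 CPM, with 1.59 ± 0.64 (SE). For both genes the Cre-positive libraries lay above all Cre-negative ones, the second mouse narrowly. The most abundant gene of the list, Itga1, an integrin chain also made by other cells, lay the other way without overlap, at 124, 87.1 and 76.2 CPM against 63.9 and 71.5 CPM, with -0.50 ± 0.26 (SE). The next most abundant, Ptpn22 and Id2, had overlapping groups and log2 fold changes of 0.02 ± 0.54 (SE) and -0.23 ± 0.34 (SE). Cre-positive mouse 1 was the highest library for 18 of the 25 markers in the table, against 26.0% of all rows. Cre-positive mouse 2 lay above every Cre-negative library for 10 of the 25, against 19.0% of all rows.

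Of 18 T cell receptor and CD3 genes, 15 were in the table and 2 were tested, Lcp2 at 1.03 and Fyn at 0.28 on the log2 scale. Their summed level was 9.82, 6.49 and 10.8 CPM in the Cre-negative libraries and 56.3 and 9.95 CPM in the Cre-positive libraries. By this sum, Cre-positive mouse 1 was apart and mouse 2 inside the range. Gene by gene, mouse 1 was highest for 15 of 15, against 26.0% of all rows. Mouse 2 lay above every Cre-negative library for 6 of 15, against 19.0% of all rows. Cd3e, a signalling chain of every T cell receptor, stood at 0.958, 0.185 and 0.815 CPM against 6.77 and 1.09 CPM. Trdc, the delta chain constant segment, named after its values were seen, stood at 0, 0.371 and 0.978 CPM against 4.06 and 1.24 CPM. Markers of conventional T cells summed to 93.5 CPM in Cre-positive mouse 1, and to 9.29 to 15.3 CPM in the other 4 libraries. Markers of NK and innate lymphoid cells, 6 of 11 in the table, summed to 29.5 to 40.8 CPM over all 5 libraries.

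Of 21 granzyme and cytotoxic granule genes beside the members, 11 were in the table and 9 were tested, 6 with positive and 3 with negative fold changes and a median of 0.22. Srgn, which encodes the granule proteoglycan serglycin, stood at 9.11, 5.37 and 7.82 CPM against 49.3 and 6.37 CPM. Ctsc, the protease that activates granzymes, stood at 98.2, 124 and 101 CPM against 193 and 123 CPM. Both genes were high in Cre-positive mouse 1, with mouse 2 inside the Cre-negative range. Lamp1, a lysosome membrane gene and the most abundant of the list, had overlapping groups and a log2 fold change of 0.14 ± 0.27 (SE). Rab27a, which docks granules for release, stood at 8.15, 5.0 and 4.56 CPM against 12.0 and 8.70 CPM, with 0.82 ± 0.38 (SE), and its groups did not overlap. Ctsw, a cathepsin of cytotoxic cells, named after its values were seen, lay the other way without overlap, at 3.35, 3.15 and 1.47 CPM against 1.35 and 0.777 CPM. Of 11 mast cell markers, only Kit and Hdc were in the table, both with overlapping groups. For Kit the Cre-negative levels were 18.2, 20.8 and 10.6 CPM, while the Cre-positive levels were 18.8 and 9.64 CPM. With the rest of that list absent from the table, a part of mast cells in the Gzmb counts was not tested.

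On the cytokine's pathway, 12 of 12 IL-15 signalling genes were in the table and 10 were tested, 6 with positive and 4 with negative fold changes and a median of 0.02. Jak1, the shared receptor kinase, stood at 112, 98.2 and 102 CPM against 147 and 116 CPM, with a log2 fold change of 0.33 ± 0.21 (SE). Its groups did not overlap, whereas those of Mcl1, a survival gene (-0.22 ± 0.24, SE), of Stat3, a signal transducer (0.00 ± 0.26, SE), and of Jak3, a receptor kinase (0.85 ± 0.55, SE), did. Il15ra, the chain that presents IL-15, also named after its values were seen, stood at 12.2, 37.4 and 21.0 CPM against 22.3 and 23.9 CPM, both inside the Cre-negative range. Il2rb, the beta chain of the IL-15 receptor, chosen in the same way, stood at 0.719, 0.556 and 0.815 CPM against 6.58 and 0.622 CPM. Il2rg, a receptor gene of the same list, also named after its values were seen, stood at 1.68, 0.741 and 1.14 CPM against 15.9 and 1.71 CPM. Both Cre-positive libraries lay above the Cre-negative range for Il2rg, the second narrowly. Il2rb and Il2rg missed the filter on low counts, so the median of 0.02 leaves them out.

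Of 23 epithelial genes that act on intraepithelial lymphocytes, 21 were in the table and 19 were tested, 7 with positive and 12 with negative fold changes and a median of -0.14. Cdh1, which encodes E-cadherin, the ligand of CD103, stood at 533, 620 and 604 CPM against 534 and 703 CPM, with a log2 fold change of 0.08. Epcam, an epithelial adhesion gene, stood at 462, 448 and 500 CPM against 505 and 654 CPM, with 0.30 ± 0.23 (SE). The Epcam groups did not overlap, but the difference did not pass the test. Cd2ap, an adaptor gene, had 0.04 ± 0.24 (SE), and Tgfb1, a cytokine gene, 1.52 ± 0.99 (SE), both with overlapping groups. Vcam1, an adhesion gene of stromal and vascular cells, had -1.84 ± 0.84 (SE) and groups that overlapped. Of 13 other butyrophilin family genes, 3 were in the table and 2 were tested, Btnl7-ps at 0.23 ± 0.32 (SE) and Cd276 at -0.72 ± 0.64 (SE).

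The members' patterns over the 5 libraries were compared by the root mean square difference of mean-centred log2 CPM, as a description over 5 points that share library and depth. Btnl pairs differed by 0.141 (Btnl1 with Btnl2) to 0.316 (Btnl2 with Btnl6), lymphocyte pairs by 0.420 (Cd8a with Itgae) to 1.22, and Btnl with lymphocyte members by 0.959 to 1.89. Il15 was closer to the Btnl members, at 0.407 to 0.504, than any lymphocyte member was. Among 11173 genes, those most like Btnl1 were Spns3, Gpat3 and Siae, at 0.0748, 0.0750 and 0.0915. Those most like Gzmb were Iglc1, Tff3 and Clca1, at 0.255, 0.380 and 0.393. Iglc1 encodes an immunoglobulin light chain segment, and plasma cell markers as a list summed to 214 to 390 CPM in the other 4 libraries and 973 CPM in Cre-positive mouse 1. Tff3 and Clca1 encode secreted products of goblet cells. Clca1 stood at 41.5, 35.4 and 113 CPM in the Cre-negative libraries and at 974 and 289 CPM in the Cre-positive libraries, the same order of libraries as Gzmb except for the lowest pair.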

How the data were processed

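Total RNA of whole small intestine from 5 mice was sequenced after depletion of ribosomal RNA, per the labels' protocols. The authors deposited 1 table of estimated counts by gene symbol. Partek and mm10 are named in the submitters' processing notes. The aligner, the annotation, the strand setting, the rule of counting and the Partek version were not given in the sources used here. Of the deposited values in a library, 19.6% to 21.7% were not whole (tolerance 0.005), which can divide reads among related genes. The lowest gene total was 10, and a gene below it has no row in the table. The counts were rounded and analysed with edgeR 4.0.16 (R 4.3.3): TMM factors, filterByExpr with a minimum count of 10, a robust quasi-likelihood fit on genotype, and Benjamini-Hochberg adjustment over the 14352 genes kept, with a threshold of 0.05. The filter removed 4846 genes. The fit had 3 residual degrees of freedom and a biological coefficient of variation of 33.1%. The standard error is the size of the log2 fold change over the square root of F. The fit was tested on simulated data. Known changes were placed there only in genes with a higher mean CPM than Gzma, Cd8a, Itgae and Tcrg-C1. That test therefore does not cover the low counts of those genes. Alternatives were other scalings and filters, DESeq2 1.42.0, limma 3.58.1 (voom), each mouse left out, unrounded values and, chosen after seeing the data, enterocyte or smooth muscle scores as covariates, no mitochondrially encoded genes and sums over related copies.

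Mice were numbered within a group in record order, and the numbers pair none of them. The members and lists were chosen with earlier results of these data known. Genes named beside the members were drawn, of each list, from the 3 of highest mean CPM, the 2 of smallest unadjusted p and any called, and the 3 genes most like Btnl1 and Gzmb with mean log2 CPM of at least 1. Others are marked as named after their values were seen, apart from Vil1, Gata4, Fabp6, Btnl4's copies and Tcrg-C1's copies, which describe the tissue or the counting. Gene positions are from GENCODE M21, and transcripts were aligned with Biopython 1.88. Of the table's symbols, 98.6% matched a GENCODE gene name. Promoters are from RefSeq (GRCm38.p6) and matched 7 of the 10 members.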

Additional observations from a re-analysis of the deposited data

How the results depend on the processing

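The number of genes called by edgeR was 0 under each alternative except 58 without Cre-positive replicate 2 and 19 with DESeq2, so leaving out 1 mouse gave 0 to 58. The Btnl minus lymphocyte gap was -0.83 and -3.55 without Cre-positive replicates 1 and 2, so leaving out 1 mouse gave -3.55 to -0.83. Gzmb, Cd8a, Gzma, Tcrg-C1 and Il15 kept their direction under every alternative that gave a value. Among the alternatives with more than 1 Cre-positive mouse, Gzmb was called under DESeq2 alone. Over the mice left out, Il15 ran from -1.33 to -0.11. With the smooth muscle score as a covariate, Il15 was -0.0686, Tcrg-C1 1.55 and Itgae 0.65, and Itgae was 0.69 with the enterocyte score. Btnl1 turned to -0.11 without Cre-negative replicate 2 and -0.0734 with limma-voom, and leaving out 1 mouse gave -0.72 to 0.61. Over the mice left out, the range was -0.91 to 0.29 for Btnl2, -0.75 to 0.00211 for Btnl4, -0.38 to 0.34 for Btnl6 and -0.0830 to 1.85 for Itgae, each turning without Cre-positive replicate 1. Btnl6 turned positive with RLE scaling (0.0171), without Cre-negative replicates 1, 2 and 3 (0.000453, 0.00930 and 0.0187), with no filter (0.0285), with 5 CPM in 2 libraries (0.00699), with DESeq2 (0.0175), without mitochondrially encoded genes (0.0228), and with the enterocyte (0.0391) or smooth muscle score (0.000572). The cause was not tested. The stricter filter left Gzmb as the single lymphocyte member. Leaving out a Cre-positive mouse leaves 1 sample in that group, which is assumed to vary like the other group. No paired analysis was possible because the labels give the groups no shared replicate numbers. Counts of 0 to 17 in the Cre-negative libraries limit what can be said of the lymphocyte members.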
